A study of Mus musculus with 6 samples.

Results

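The Schlafen genes examined here were 7 mouse genes, Slfn1, Slfn2, Slfn3, Slfn4, Slfn5, Slfn8 and Slfn9, taken by name out of 36137 genes with a transcript in the data. They were chosen with their difference between WT and Drp1 KO macrophages already known, so their own fold changes are given as a description and carry no test. All 7 passed the low-count filter and were among the 18506 genes tested. RNA came from bone marrow-derived macrophages (BMDMs) grown for 7 days with L929 supernatant and then kept for 8 h in endothelial starvation medium without serum at 2.1% oxygen. The study calls this treatment hypoxia serum starvation (HSS) and uses it as a culture model of ischemia. WT BMDMs were LysM-Cre+/- Drp1+/+ (3 libraries) and Drp1 KO BMDMs were LysM-Cre+/- Drp1 fl/fl (3 libraries). Both genotypes thus carried 1 LysM-Cre allele, which drives recombination in myeloid cells, and both received HSS, so the data hold no library of cells left in normal oxygen and serum. Donors were adult mice of both sexes, and marrow from a pair of mice per genotype was pooled. Whether each library had its own pool is not stated in the sources used here, so the spread between libraries may be technical. Drp1 is the dynamin-related GTPase that divides mitochondria.

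Schlafen genes encode cytoplasmic and nuclear proteins that restrain cell growth and virus replication, and many of them are induced by type I interferon. Mouse members fall into a short form (Slfn1, Slfn2), an intermediate form (Slfn3, Slfn4) and a long form with a helicase-like C-terminal part (Slfn5, Slfn8, Slfn9, Slfn10, Slfn14). Type I interferon acts through the receptor chains Ifnar1 and Ifnar2 and the kinases Jak1 and Tyk2. A factor that holds Stat2 and Irf9 then binds interferon-stimulated response elements (ISRE) in the promoters of its targets.

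The members lay in 1 cluster on chromosome 11 (GRCm39 build, chr11:82842100-83109101, 267 kb). Slfn5 (82842100 to 82855666), Slfn2 (82955609 to 82961504), Slfn1 (83007615 to 83013496), Slfn4 (83066012 to 83081042) and Slfn3 (83082123 to 83109101) are on the plus strand. Slfn9 (82868552 to 82882656) and Slfn8 (82892984 to 82911669) are on the minus strand. The annotation holds 12 genes whose symbol starts with Slfn. The other 5 were Slfn10 (Slfn10-ps in older annotation), Slfn14, Slfnl1 on chromosome 4, and the long non-coding genes Slfn5os and Slfnlnc, which have no transcript in the data.

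Promoters were read from the GRCm39 genome from 250 bases before to 50 bases after the start of each gene's most abundant transcript. They were searched on both strands for the core ISRE letters GAAANNGAAA and for the gamma-activated site TTCNNNGAA. The ISRE letters were in 3 of the 7 members' promoters (Slfn5, Slfn8 and Slfn9) and in 3.93% of the promoters of all 18506 genes tested. The gamma-activated site letters were in no member's promoter and in 7.72% of all promoters. The stretches before the start of the 3 genes with a match, and of the 2 members with the largest fold changes (Slfn1 and Slfn4), are printed 5′ to 3′ on the gene's own strand, with the ISRE match in capitals.
Slfn5, plus strand, chr11:82842728-82842828, bases -200 to -100: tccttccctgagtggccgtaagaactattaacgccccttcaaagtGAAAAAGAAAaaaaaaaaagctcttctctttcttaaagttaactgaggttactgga
Slfn9, minus strand, chr11:82882657-82882756, bases -100 to -1: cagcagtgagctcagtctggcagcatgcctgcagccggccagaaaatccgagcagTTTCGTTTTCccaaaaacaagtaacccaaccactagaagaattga
Slfn8, minus strand, chr11:82911670-82911769, bases -100 to -1: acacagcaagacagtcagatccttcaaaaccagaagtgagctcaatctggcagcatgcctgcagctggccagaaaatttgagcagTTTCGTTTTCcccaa
Slfn1, plus strand, chr11:83007515-83007614, bases -100 to -1: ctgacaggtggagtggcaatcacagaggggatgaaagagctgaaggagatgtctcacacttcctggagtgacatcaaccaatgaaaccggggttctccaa
Slfn4, plus strand, chr11:83065912-83066011, bases -100 to -1: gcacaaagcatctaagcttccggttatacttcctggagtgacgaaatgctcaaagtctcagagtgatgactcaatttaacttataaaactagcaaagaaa

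The match lay at bases -155 to -146 of Slfn5, -45 to -36 of Slfn9 and -15 to -6 of Slfn8. Slfn8 and Slfn9 shared the same 10 letters on the opposite strand, and over the match and the 40 bases before it 94% of their bases were identical. The RefSeq promoter windows (GRCm38.p6 build), which held an entry for each of the 7 members, gave the ISRE letters in the same 3 genes and in 3.44% of all windows. A match is a description of letters and not a measured binding site.

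The gene that carries the floxed alleles, Dnm1l, which encodes Drp1, had levels of 72.7, 69.9 and 75.1 CPM (counts per 1000000 counts of the TMM-normalized library) in the WT libraries and 58.7, 60.7 and 66.3 CPM in the Drp1 KO libraries. Every Drp1 KO library was below every WT library, and the log2 fold change of -0.23 (SE 0.0921) did not pass edgeR's test (adjusted p = 0.248). These are RNA values summed over the gene's transcripts. By immunoblot, against Drp1 fl/fl controls, the paper reports that the protein was deleted in BMDMs. Depth, the sum of the deposited estimated counts, was 23389488 to 32231206 reads per library. Macrophage markers were abundant in each library (6 of 6 tested, 3831 to 4656 CPM summed, without TMM), among which Csf1r and Mertk fell and Fcgr1 rose. Of the markers of other cells, Ly6g (neutrophils), Ncr1 (NK cells) and Hba-a1 (red cells) were at 0 counts in all 6 libraries, and other neutrophil markers were detected, such as S100a9 at 3.31 to 12.5 CPM in the WT and 10.4 to 27.0 CPM in the Drp1 KO group. The data are from bulk RNA, in which fewer cells of a type and less RNA per cell cannot be told apart.

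All 7 members had a positive log2 fold change (Drp1 KO relative to WT), from 0.66 for Slfn2 to 4.13 for Slfn1. The median was 1.20, against 0.0046 over all genes tested. In each member every Drp1 KO library lay above every WT library, which was so for 11.7% of all genes tested. All 7 members also had an adjusted p under 0.05, a level that 3.36% of genes reached in either direction and 2.29% as higher in Drp1 KO. By the study's own rule, a minimum fold change with an unadjusted p under 0.05, 7 of 7 members and 7.19% of genes were higher. The members were selected on this contrast, so these counts say nothing more than that the selection was followed. Slfn2 and Slfn8 were no longer past the adjusted p when library 2 or 3 of the WT group or library 2 of the Drp1 KO group was left out, and Slfn2 also without Drp1 KO library 3. Over all genes tested, 621 passed with all 6 libraries. Fewer passed without WT library 2 or 3 (181 and 217) and without Drp1 KO library 2 or 3 (268 and 348).

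**Figure D1:**
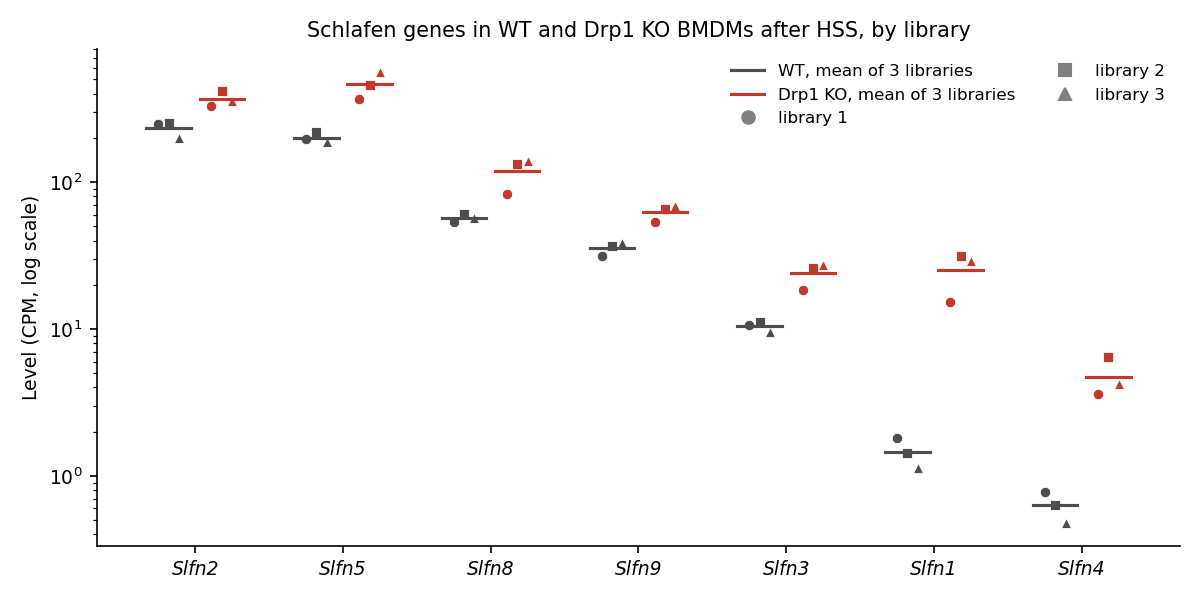
Level of each Schlafen gene in CPM (log axis) in the 3 WT libraries (grey) and the 3 Drp1 KO libraries (red), with a symbol for each library number and a line at the mean of 3 libraries. The groups do not overlap for any of the 7 genes, and Drp1 KO library 1 (circle) is the lowest of the Drp1 KO libraries for each of them.

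Of the short members, Slfn1, the founding gene of the family and known as a brake on T cell growth, was nearly silent in WT BMDMs. It had 1.81, 1.42 and 1.12 CPM in WT libraries (42, 38 and 33 counts). It had 15.3, 31.2 and 29.0 CPM in Drp1 KO libraries (338, 1022 and 944 counts). The WT values had a coefficient of variation of 23.7%, and the lowest Drp1 KO library was 8.47-fold above the highest WT library. Its log2 fold change was 4.13 (SE 0.297), a 17.5-fold difference and the largest of the family. It ranged from 3.95 to 4.37 with each library left out in turn.

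Slfn2, which protects tRNA from cleavage and keeps T cells and monocytes quiescent, was the opposite case, abundant in both genotypes and least changed. It had 248.8, 251.6 and 198.8 CPM in WT libraries, and 329.0, 416.9 and 357.9 CPM in Drp1 KO libraries. WT library 3 was the lowest, and the groups were separated by a factor of 1.31 between the highest WT and the lowest Drp1 KO library. Slfn2 thus had a log2 fold change of 0.66 (SE 0.126), or 57.9% higher counts in Drp1 KO BMDMs. Slfn2 and Slfn1 added together had a log2 fold change of 0.75 (SE 0.129), since Slfn2 made up nearly all of that sum.

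Of the intermediate members, Slfn4, a myeloid gene known from macrophage activation and from myeloid-derived suppressor cells, was the least abundant. It had 0.776, 0.637 and 0.477 CPM in WT libraries (18, 17 and 14 counts) and 3.59, 6.45 and 4.20 CPM in Drp1 KO libraries (79, 211 and 137 counts). All 6 libraries were above the floor of 3 counts, which is 0.0936 to 0.129 CPM in these libraries, and Drp1 KO library 2 stood highest. The log2 fold change was 2.92 (SE 0.311), or 7.59-fold. With counts rescaled from TPM it was 2.32, a smaller difference in the same direction.

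Slfn3, described in T cell and intestinal differentiation, had 10.7, 11.1 and 9.51 CPM in WT libraries and 18.6, 26.1 and 27.5 CPM in Drp1 KO libraries. WT libraries were alike and Drp1 KO library 1 was below the other two. Slfn3 had a log2 fold change of 1.21 (SE 0.160), a 2.31-fold difference. Slfn3 and Slfn4 added together had a log2 fold change of 1.38 (SE 0.160).

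The 3 annotated transcripts of Slfn3 did not move together. The transcript of 1816 bases, which codes for protein, had an estimated 5.68, 2.69 and 2.30 CPM in WT libraries and 8.68, 13.9 and 15.3 CPM in Drp1 KO libraries. The coding transcript of 1966 bases had 1.87, 2.35 and 1.49 CPM in WT libraries and 5.96, 7.50 and 7.01 CPM in Drp1 KO libraries. In both, the groups did not overlap, and the ratio of means was 3.55 and 3.59. The transcript of 2834 bases, for which the annotation defines no coding sequence, had 3.14, 6.07 and 5.71 CPM in WT libraries and 3.90, 4.73 and 5.12 CPM in Drp1 KO libraries. Its groups overlapped, with a ratio of means of 0.922. Counted over coding transcripts only, the log2 fold change of Slfn3 was 1.85 in place of 1.21. The split of reads between transcripts is kallisto's estimate. Uneven transcripts were not particular to Slfn3. The Slfn8 transcript of 3083 bases had overlapping groups, with 8.18 CPM in WT library 3 and 4.56 CPM in Drp1 KO library 3.

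**Figure D2:**
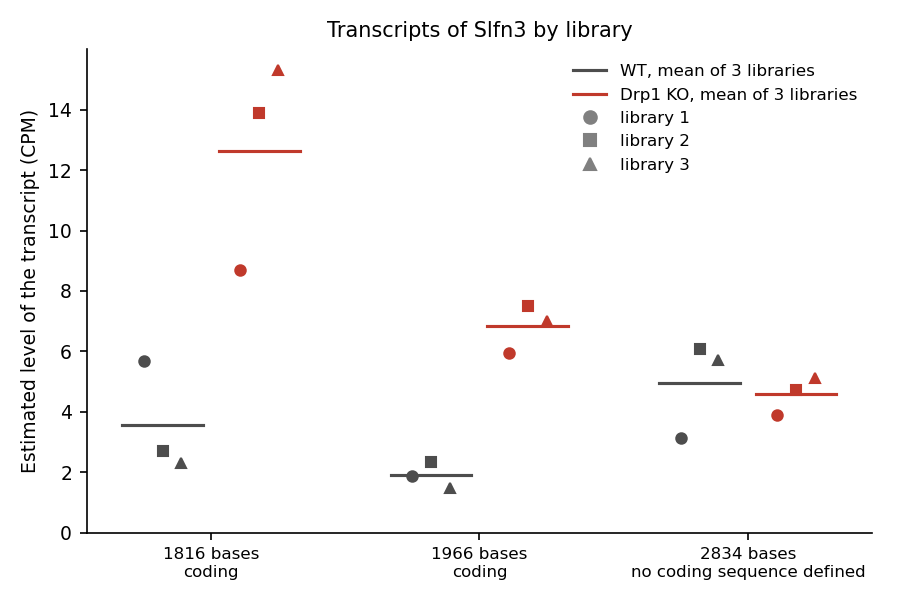
Estimated level in CPM of the 3 annotated transcripts of Slfn3 in each WT library (grey) and each Drp1 KO library (red), with lines at the means of 3 libraries. Both coding transcripts are higher in every Drp1 KO library, and the transcript with no defined coding sequence has overlapping groups.

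Of the long members, Slfn5, a nuclear protein known to restrict herpesvirus transcription, was the most abundant. It had 196.7, 217.8 and 187.8 CPM in WT libraries and 367.3, 455.6 and 563.7 CPM in Drp1 KO libraries. The groups were apart, with an SD of 15.4 CPM among WT and 98.4 CPM among Drp1 KO libraries and the highest value in Drp1 KO library 3. Slfn5 had a log2 fold change of 1.20 (SE 0.147), or 2.30-fold. Its transcript of 5979 bases averaged 192.3 CPM over WT and 448.9 CPM over Drp1 KO libraries, so it held nearly all of the gene's counts.

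Slfn8 and Slfn9 are neighbouring long members related to human SLFN11 and SLFN13, of which both cleave tRNA. Slfn8 had 53.6, 61.1 and 57.4 CPM in WT libraries and 82.9, 132.1 and 139.6 CPM in Drp1 KO libraries. Its log2 fold change was 1.04 (SE 0.173), its groups were apart, and Drp1 KO library 1 was 38.9% below the mean of the other two. Slfn9 had 31.3, 36.7 and 38.5 CPM in WT libraries and 53.9, 65.9 and 69.2 CPM in Drp1 KO libraries. For Slfn9 the log2 fold change was 0.83 (SE 0.124), and the groups were likewise apart, by a factor of 1.40 between the highest WT and the lowest Drp1 KO library.

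Among the family's genes that were not chosen, Slfn10, whose measured transcript is annotated as having lost its function, rose. It had 19.5, 17.4 and 19.8 CPM in WT libraries and 27.7, 31.9 and 34.0 CPM in Drp1 KO libraries. The groups were apart, and the log2 fold change was 0.72 (SE 0.117, adjusted p = 0.00849, edgeR). Over 14 other settings the adjusted p lay between 2.28e-05 and 0.0805, and only without WT library 2 did it miss the threshold. Slfn14, a ribosome-associated nuclease of platelets and red cells, had at most 2 counts in any library. Slfnl1 had at most 3 counts in any library. Both were too low to be tested.

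Reads that fit several of these genes were divided by kallisto. Of the distinct stretches of 31 bases in its GENCODE transcripts, 98.1% of those of Slfn1, 94.8% of Slfn5 and 91.5% of Slfn2 were found in no other gene. The share was 82.0% for Slfn3, 79.0% for Slfn4, 78.1% for Slfn9 and 75.2% for Slfn8, and lowest for Slfn10, at 63.9% (28.1% shared with Slfn9 and 22.2% with Slfn8). Slfn8 shared 19.0% of its stretches with Slfn9 and 14.6% with Slfn10, and Slfn4 shared 13.1% with Slfn3, so the levels of these genes are uncertain as far as reads fell there. These shares come from the present annotation, in which 86030 of 116210 transcripts have the length of the one quantified, among them 0 of 1 for each of Slfn1, Slfn2 and Slfn10, 1 of 3 for each of Slfn3, Slfn4 and Slfn9, 3 of 6 for Slfn8 and 3 of 4 for Slfn5, so the shares in the index used may differ. The value for Slfn8, Slfn9 and Slfn10 added together, a log2 fold change of 0.93 (SE 0.140), lay between those of the 3 genes. The lncRNA Slfn5os overlaps Slfn5 on the opposite strand and is not among the transcripts quantified, so its reads could not be told apart from those of Slfn5 unless strand was used, which the sources used here do not state.

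Per length, as TPM (the level scaled by transcript length and library total, deposited by the authors and added per gene), Slfn2 was highest in WT BMDMs at 215.3 ± 18.7 TPM (SD, n = 3). Slfn5 followed at 61.8 ± 5.87, Slfn8 at 28.8 ± 2.59, Slfn9 at 10.6 ± 1.55 and Slfn3 at 7.82 ± 0.662 TPM. Slfn1 at 1.32 ± 0.252 TPM and Slfn4 at 0.419 ± 0.116 TPM were lowest, and no neighbours in this order had overlapping ranges. In Drp1 KO BMDMs Slfn2 (323.1 ± 44.1 TPM), Slfn5 (127.1 ± 29.2 TPM) and Slfn8 (56.3 ± 17.1 TPM) were again the 3 highest, in that order. Slfn1 came next at 21.8 ± 7.96 TPM, with a range that overlapped that of Slfn3 (19.3 ± 4.67 TPM), which overlapped that of Slfn9 (18.5 ± 3.25 TPM). Slfn4 was again lowest at 1.97 ± 0.678 TPM. Slfn1 thus moved from the sixth place to a level that its spread does not separate from Slfn3.

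**Figure D3:**
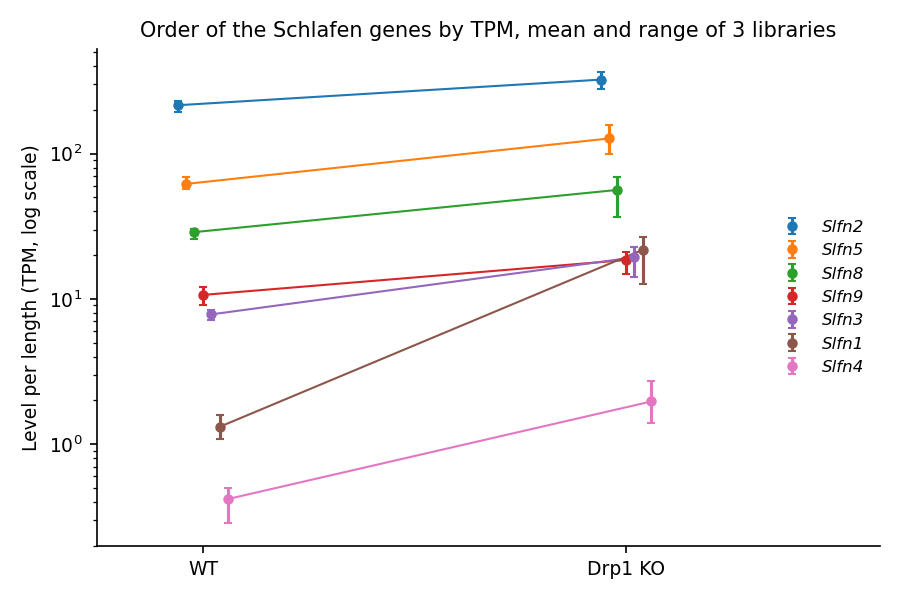
Level per length of each Schlafen gene in TPM (log axis) in WT and Drp1 KO BMDMs, as the mean (point) and the range (bar) of 3 libraries. Slfn1 climbs from 1.32 to 21.8 TPM into the overlapping ranges of Slfn3 and Slfn9, and Slfn2, Slfn5 and Slfn8 stay above and Slfn4 below them in both groups.

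The 7 members together summed to 304.3 to 348.5 TPM in WT libraries and 456.3 to 624.4 TPM in Drp1 KO libraries. Slfn2 made up 63.7% to 68.4% of this sum in the WT group and 52.3% to 60.9% in the Drp1 KO group, ranges that do not overlap. The share of Slfn1 was 0.357% to 0.487% against 2.76% to 4.29%, and that of Slfn5 was 17.6% to 19.7% against 20.0% to 25.2%.

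Drp1 KO library 1 was the lowest of the 3 Drp1 KO libraries in all 7 members, and it was the lowest for 40.5% of all genes tested. It was 15.1% (Slfn2) to 49.0% (Slfn1) below the mean of Drp1 KO libraries 2 and 3. It remained above the WT mean in each member, from 1.41-fold for Slfn2 to 10.6-fold for Slfn1. The coefficient of variation was larger among Drp1 KO than among WT libraries in 6 of 7 members, the exception being Slfn2 (12.7% in WT and 12.2% in Drp1 KO libraries). With that library left out, the members' median log2 fold change was 1.34.

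Genes near the cluster were taken by position and not by their values. Within 500 kb of the cluster 24 other genes were tested, of which 3 rose, which is 12.5% against 2.29% of all genes, and 0 fell by edgeR, DESeq2 or limma-voom. At an unadjusted p under 0.05, 7 of the 24 were higher and 0 lower, against 9.03% and 7.39% of all genes. With same-numbered libraries treated as pairs, 4 of the 24 genes (16.7%) and 6.73% of all genes were higher. Slfn10 shares sequence with chosen members, and without it 2 of 23 genes rose. The median log2 fold change of the 24 genes was 0.32. The genes that rose were Slfn10 and the chemokine genes Ccl5 and Ccl9, which recruit T cells and myeloid cells. Ccl5, 308 kb from the nearest member, had 3.32, 2.77 and 1.70 CPM in WT libraries and 6.58, 7.21 and 5.40 CPM in Drp1 KO libraries. The groups were apart, with a log2 fold change of 1.31 (SE 0.248, adjusted p = 0.0203, edgeR). Ccl9, 355 kb away, had 288.7, 261.4 and 232.6 CPM in WT libraries and 353.0, 397.4 and 557.8 CPM in Drp1 KO libraries. Its groups were apart too, with a log2 fold change of 0.74 (SE 0.163, adjusted p = 0.0368, edgeR). Over other settings the adjusted p ranged from 0.000103 to 0.101 for Ccl5 and from 0.000924 to 0.189 for Ccl9. Of these 24 genes 0 were past the threshold without WT library 2, and 1 each without WT library 3 or Drp1 KO library 2. Over all genes tested, those past it fell from 621 to 181, 217 and 268 in the same 3 settings.

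**Figure D4:**
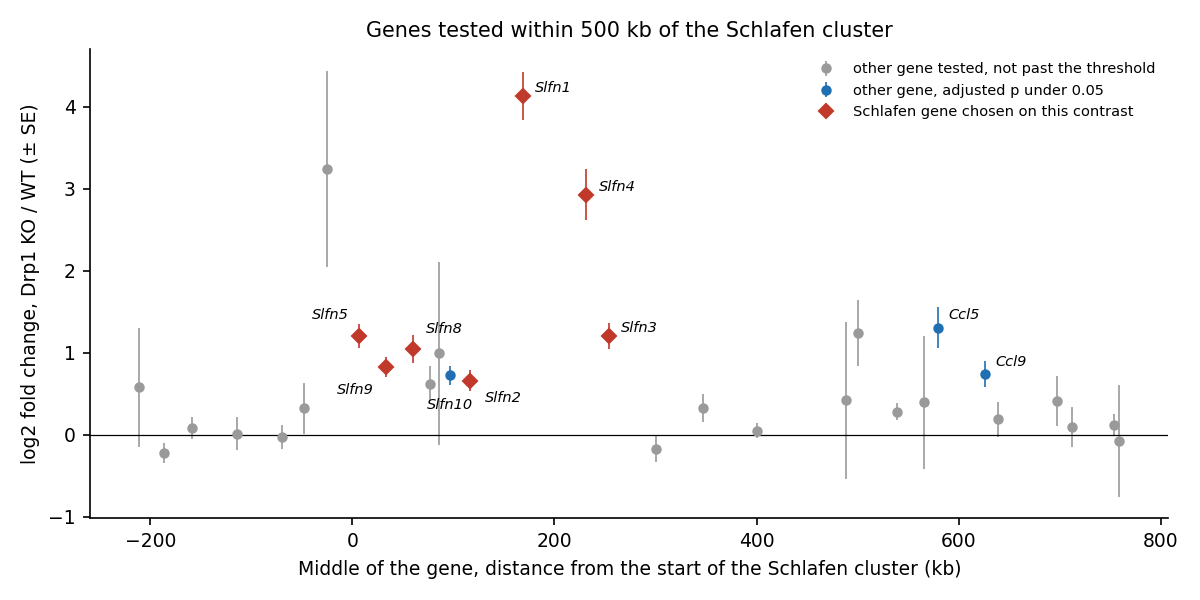
Log2 fold change (Drp1 KO relative to WT, bars are SE) of the genes tested within 500 kb of the Schlafen cluster, against the distance of each gene's middle from the start of the cluster in kb. Red diamonds are the 7 chosen Schlafen genes, blue points the 3 other genes with an adjusted p under 0.05 and grey points those that did not pass, of which the highest (3.24) has a wide error and few counts.

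The pseudogene Gm11427, 25.6 kb past the end of Slfn3, holds stretches of 31 bases in common with Slfn4, Slfn3, Slfn2 and Slfn1. It did not pass the test, with 9.27, 12.7 and 11.0 CPM in WT and 8.58, 9.53 and 11.0 CPM in Drp1 KO libraries. It was singled out after its values were seen, as was Unc45b, 5.79 kb before Slfn5. Unc45b had a log2 fold change of 3.24 (SE 1.20, adjusted p = 0.203, edgeR) at levels of 0 to 0.275 CPM.

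In the interferon pathway, 20 of 34 genes tested (41 listed) rose, against 2.29% of all genes. By edgeR, DESeq2 and limma-voom 0 fell, and 0 were lower at an unadjusted p under 0.05. By role, 14 of 15 targets, 5 of 8 transcription factors and 1 of 3 inhibitors rose. Of 5 receptor chains and 3 kinases 0 passed the adjusted p of edgeR, DESeq2 or limma-voom. At an unadjusted p under 0.05 by edgeR, 1 of these 8 genes (Jak2) was higher, against 9.03% of all genes. Jak2 passed with same-numbered libraries treated as pairs (adjusted p = 0.0460, edgeR), where the other settings went up to 0.432. With that pairing 6.73% of all genes were higher. The 7 interferon genes listed were too low to be tested, with Ifnb1 at 5 counts over the 6 libraries. The list was drawn up with earlier results of these data known.

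Among the factors, Stat2 had 44.8, 48.4 and 43.0 CPM in WT libraries and 86.0, 122.9 and 133.1 CPM in Drp1 KO libraries, with no overlap. Its log2 fold change was 1.33 (SE 0.152, adjusted p = 0.00124, edgeR). That of Irf9 was 0.98 (SE 0.115, adjusted p = 0.00149, edgeR). Irf7, which amplifies interferon production, had 74.6, 21.2 and 19.3 CPM in WT libraries and 349.3, 355.3 and 270.9 CPM in Drp1 KO libraries. WT library 1 stood above the other WT libraries but far below every Drp1 KO library, and the log2 fold change was 3.09 (SE 0.452, adjusted p = 0.00554, edgeR). Usp18, which dampens signalling at Ifnar2, had 3.16 (SE 0.207, adjusted p = 0.000197, edgeR). The most abundant target, the antiviral enzyme gene Rsad2, rose by a log2 fold change of 2.06 (SE 0.205, adjusted p = 0.000624, edgeR). The most abundant receptor chain, Ifnar2, averaged 367.1 ± 11.9 CPM over WT and 322.4 ± 58.9 CPM over Drp1 KO libraries (SD, n = 3 per group). The corresponding values of Jak1, the most abundant kinase, were 335.9 ± 15.2 and 311.9 ± 39.8 CPM.

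Of the targets, 13 of 15 had their lowest Drp1 KO value in library 1, against 40.5% of all genes. The fold change of Slfn1 was larger than that of each gene tested in the list, and that of Slfn2 was smaller than that of each of the 14 targets that rose, differences that were not tested.

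**Figure D5:**
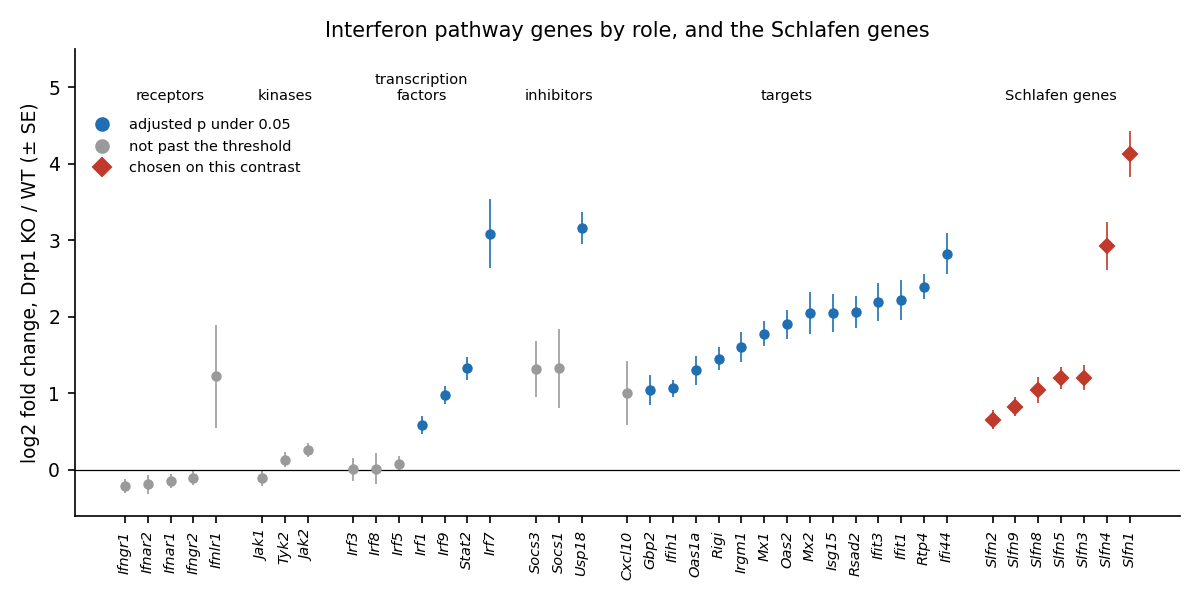
Log2 fold change (Drp1 KO relative to WT, bars are SE) of interferon pathway genes, ordered within their roles (not every gene tested is drawn), with the 7 Schlafen genes at the right. Blue points passed an adjusted p of 0.05, grey points did not, and red diamonds are the genes chosen on this contrast.

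Genes whose level over the 6 libraries was most like that of a member were sought by Pearson's r of log2 CPM among the 12248 genes that averaged 1 CPM or more. All 6 libraries enter this measure, so a gene that differs between the genotypes tends to have a high r to others that differ in the same direction. Closest to Slfn1 were the interferon-inducible gene Ifi213 (0.999), the pseudogene Gm10123 (0.999) and the RNA helicase gene Ddx60 (0.999). Closest to Slfn3 were Stat2 (0.998), the phospholipid synthesis gene Cept1 (0.996) and the GTPase gene Ifi47 (0.996), and closest to Slfn5 were the RNA sensor gene Znfx1 (0.996), Stat2 (0.995) and the nucleoside transporter gene Slc28a2 (0.995). Slfn4 was most like Dcaf13 (0.997), Gm10123 (0.996) and Gm6377 (0.996). Slfn8 was most like Tcstv4 (0.999), the selenoprotein gene Selenot (0.998) and Gm12250 (0.997). For Slfn2 the closest were Cbfb (0.997), Mtmr2 (0.995) and Sar1b (0.992), and for Slfn9 they were Dock11 (0.998), Cnih4 (0.997) and Ovca2 (0.997). Of all these genes, Stat2 alone is on the interferon list. Between members, r ran from 0.865 (Slfn2 with Slfn9) to 0.993 (Slfn1 with Slfn4).

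Schlafen genes are also expressed by other blood cells, so marker lists of those cells were summed in each library, as CPM of the library total without TMM. Neutrophil markers, mainly S100a9 and S100a8, summed to 7.22, 20.4 and 22.9 CPM across the WT libraries and to 20.2, 50.4 and 48.5 CPM across the Drp1 KO libraries. The ranges of the groups overlapped, each Drp1 KO library was above the WT library of the same number, and library 1 was the lowest of its group in both. Of the 7 neutrophil genes tested, 0 passed the adjusted p of edgeR or limma-voom in the unpaired fit, and 4 (S100a8, S100a9, Ngp and Ltf) were higher with same-numbered libraries treated as pairs, against 6.73% of all genes. By DESeq2 2 of them (S100a8 and Ngp) were higher, against 3.58% of all genes, and the same 4 were higher at an unadjusted p under 0.05, against 9.03%.

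Dendritic cell markers summed to 88.7 to 129.6 CPM over the WT and 130.0 to 171.5 CPM over the Drp1 KO libraries, almost all of it Bst2, which is itself induced by interferon. T and NK cell markers summed to 307.0 to 336.2 against 130.4 to 257.7 CPM, nearly all of it Cd4. Sums overlapped for B cell markers (3.67 to 5.43 against 5.42 to 6.99 CPM), fibroblast markers (1.91 to 2.93 against 1.90 to 1.95 CPM) and erythroid and megakaryocyte markers (45.3 to 68.2 against 46.7 to 71.5 CPM). Of the 31 genes tested on these lists and the neutrophil list, 0 passed edgeR's adjusted p, and 6 were higher and 2 lower at an unadjusted p under 0.05, against 9.03% and 7.39% of all genes. With the pairing, Bst2 and the 4 neutrophil genes were higher and Cd4 was lower. Cd4 was also lower by DESeq2 and limma-voom. The part of such cells in the levels of the Schlafen genes was not tested.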

How the data were processed

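Per the labels, poly(A) RNA was sequenced in paired ends. The authors quantified reads with kallisto 0.46.1 on Ensembl cDNA of GRCm39 and deposited, per transcript, expected counts (estimated counts, not whole numbers, not normalized) and TPM. The deposited length and effective length values were used only for rescaling. Of 116873 transcripts, 99.4% matched a GENCODE gene, and counts were added per gene and rounded. Genes with at least 10 counts in total were fitted with edgeR 4.0.16 (TMM, quasi-likelihood test, no covariate, R 4.3.3), with Benjamini-Hochberg adjustment over all genes. SEs are the log2 fold change over the square root of F.

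The members and lists were chosen with earlier results of these data known. All members, other Slfn genes, genes within 500 kb past the threshold, the most abundant interferon gene per role with Stat2, Irf7, Irf9 and Usp18, 3 most alike genes per member and Dnm1l were named, apart from items not reported here. Same-numbered WT and Drp1 KO libraries deviated together (r 0.510, 0.204 and 0.298 over 12248 genes). WT library 2 deviated more with Drp1 KO library 3 (0.326) than with Drp1 KO library 2. Pairing by the labels' numbers was thus taken from these same data and is uncertain for libraries 2 and 3. It was used as an alternative only, beside the unpaired fit. Alternatives were other scalings and filters, DESeq2 1.42.0, limma-voom 3.58.1, a replicate block, length-scaled counts, coding transcripts only and leaving out each library. For a single gene, 3 against 3 allows no exact two-sided p under 0.1. Count floors cover counting error only.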

Additional observations from a re-analysis of the deposited data

How the results depend on the processing

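Over 15 other settings the 105 values of single members stayed above 0 and all 7 members were past the adjusted p in 11 settings. The exceptions were single libraries left out, over which 5 to 7 members passed. The median log2 fold change of the members then ran from 1.04 to 1.34. The members' own values that moved by more than the spread between libraries were those of Slfn1 (0.75) and Slfn4 (1.38) when added to Slfn2 and Slfn3, of Slfn3 over coding transcripts only (1.85) and of Slfn4 with length-scaled counts (2.32). The number of all genes past the threshold was 621. It was 1155 with DESeq2, 1065 with no filter beyond 1 count, and 2212 with the replicate block, under which all 7 members passed and the members' median was 1.18. The pairing added Taf15 among the genes near the cluster, Jak2, Socs3 and Cxcl10 on the interferon list, and S100a8, S100a9, Ngp, Ltf, Bst2 and Cd4 among the markers, and changed no other call given for these lists. Dnm1l had an adjusted p of 0.0738 (edgeR) with the pairing. The number of all genes past the threshold ran from 181 to 904 with each library left out. Genes near the cluster past the threshold were 3, were 1 over coding transcripts only, and ran from 0 to 3 with each library left out. Interferon genes past it were 20, between 17 and 23 under the other settings. The ranks by TPM and by annotated length were identical for all 7 members in both groups. At 0.0936 to 0.129 CPM for 3 counts, Slfn14 and Slfnl1 were below what these libraries can compare.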
